A study of Mus musculus with 24 samples.

Results

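The 10 genes described here belong to the BCL2 family, which sets whether a cell keeps or loses the integrity of its mitochondria. They are *Bcl2*, *Bcl2l1*, *Mcl1*, *Bcl2l11*, *Bax*, *Bak1*, *Bid*, *Bbc3*, *Pmaip1* and *Bmf*, and they were chosen by name, 1 Ensembl identifier each, among the 17464 identifiers measured by RNA-seq. All 10 were listed and all 10 passed the filter on low values. RNA came from regulatory T (Treg) cells, the CD4+ T cells that restrain immune responses, sorted by flow cytometry from the spleens of WT C57BL/6JRccHsd mice. The mice were 2 months (4 young mice) or 26 months of age (4 old mice), and each gave 3 libraries: resting Treg cells (rTreg, CD62L+ CD44-), activated Treg cells (aTreg, CD62L- CD44+) and KLRG1+ Treg cells (kTreg). KLRG1 is an inhibitory receptor of lymphocytes that have divided and differentiated. The data set therefore held 24 libraries in 6 groups of 4, with no treatment in any group, and the labels did not give the sex of the mice. Values are normalized read counts, reads divided by 1 size factor per library, and 1 read was worth between 0.694 and 1.32 of these units.

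The family works through contacts between its members on the outer mitochondrial membrane. Anti-apoptotic members (*Bcl2*, *Bcl2l1*, which encodes BCL-XL, and *Mcl1*) hold in check the effectors *Bax* and *Bak1*, which otherwise form pores and release cytochrome c. BH3-only members, so named for the single short domain they share with the others, either occupy the groove of the anti-apoptotic proteins or act on the effectors. Among them are *Bcl2l11* (BIM), *Bid*, *Bbc3* (PUMA), *Pmaip1* (NOXA) and *Bmf*. In Treg cells, IL-2 signalling is known to support MCL1, and loss of MCL1 is known to deplete the lineage, whereas BIM is known to limit how long peripheral Treg cells live. Much of this control acts on proteins, which RNA does not show.

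The BH3 core is the stretch with which BH3-only proteins occupy the groove of the anti-apoptotic proteins. Its coding bases are shown because the 3 classes have this motif in common. A script searched the canonical GENCODE M39 protein of 9 of the genes (*Pmaip1* was not analysed here) for a leucine, 3 residues of which the last is hydrophobic, then glycine or alanine, an aspartate, any residue and a hydrophobic residue. It matched once in each of the 9. Capitals mark the codons of the leucine and of the glycine or alanine with its aspartate, and each line is the coding strand, 5′ to 3′, on GRCm39.
Bcl2 (chr1:106640308-106640331, minus strand): CTCcgccgggctGGGGATgacttc
Bcl2l1 (chr2:152671620-152671643, minus strand): CTGagagaggcaGGCGATgagttt
Mcl1 (chr3:95566747-95566770, plus strand): CTGcggcgcgtgGGCGACggcgtg
Bax (chr7:45115424-45115447, minus strand): CTCcggcgaattGGAGATgaactg
Bak1 (chr17:27241508-27241531, minus strand): CTTgctctcatcGGAGATgatatt
Bcl2l11 (chr2:127989070-127989093, plus strand): CTGcggcggatcGGAGACgagttc
Bid (chr6:120874253-120874276, minus strand): CTCgcccaaataGGCGATgagatg
Bbc3 (chr7:16047698-16047721, plus strand): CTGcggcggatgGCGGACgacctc
Bmf (chr2:118375584-118375607, minus strand): CTTcagtgtattGCAGACcagttc
The search covered coding bases only, and none of the 9 stretches is interrupted by an intron. *Bbc3* and *Bmf* carry an alanine codon where the others carry glycine.

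The libraries held 15045747 to 29521942 reads on listed genes. The sort was visible in the RNA: *Klrg1* lay between 16559 and 41561 in kTreg libraries and at no more than 357 in the others, and *Foxp3*, the transcription factor of the lineage, was at least 5079 everywhere. Some libraries stood apart. The library of kTreg cells of young mouse 4 (young kTreg 4) listed 4913 genes at 0, against 419 to 2756 in the other 23. *Foxp3* was 5079 in old aTreg 2, against 16925 to 19813 in the other old aTreg libraries. In the 3 libraries of young mouse 2 the markers of B cells (7 genes, all listed) summed to 7122 to 16030, against at most 2064 elsewhere. Markers of macrophages and monocytes (6 genes, all listed) summed to 10235 to 26440 in old rTreg libraries, to 575 to 1277 in 3 young rTreg libraries and to 8152 in young rTreg 2. In each other group these markers summed to 51.97 to 2861 (young aTreg), 0 to 19824 (young kTreg), 229 to 326 (old aTreg) and 1954 to 2883 (old kTreg). The sums of 2861 and 19824 were those of young mouse 2. The other young aTreg libraries reached at most 222 and the other young kTreg libraries at most 943. In bulk RNA, fewer cells of a type and less RNA per cell cannot be told apart.

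The first question was whether kTreg cells differ from aTreg and rTreg cells in these genes. In kTreg cells *Bcl2* was lower and *Bcl2l1*, *Bid* and *Pmaip1* were higher than in aTreg cells, and the same 4 genes differed from rTreg cells. *Mcl1*, *Bax*, *Bak1*, *Bcl2l11*, *Bbc3* and *Bmf* did not pass both thresholds (adjusted p below 0.05 and a fold above 1.5) in either comparison. With the ages weighted equally, 3 of the 10 genes were called higher and 1 lower in kTreg than in aTreg cells, where 4.13% of the 16630 genes tested were called higher and 3.26% lower. Against rTreg cells the counts were again 3 higher and 1 lower, where 9.37% of all genes were called higher and 6.09% lower. Between aTreg and rTreg cells 0 of the 10 were called by limma, edgeR or DESeq2, where limma called 5.23% of all genes higher and 2.78% lower, and 3 of the 10 had an unadjusted p below 0.05. The median log2 fold change of the 10 genes was 0.25 for kTreg against aTreg cells and 0.17 for kTreg against rTreg cells, beside −0.08 and −0.01 over all genes tested. Markers of Treg cells (5 genes, all listed) moved with both comparisons: 4 of the 5 were called higher in kTreg than in aTreg cells (median 0.88) and 3 higher than in rTreg cells (median 0.96). They summed to 79352 to 97191 in kTreg, 24240 to 65345 in aTreg and 45916 to 62378 in rTreg libraries, and their part in the differences of the 10 genes was not tested.

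**Figure D1:**
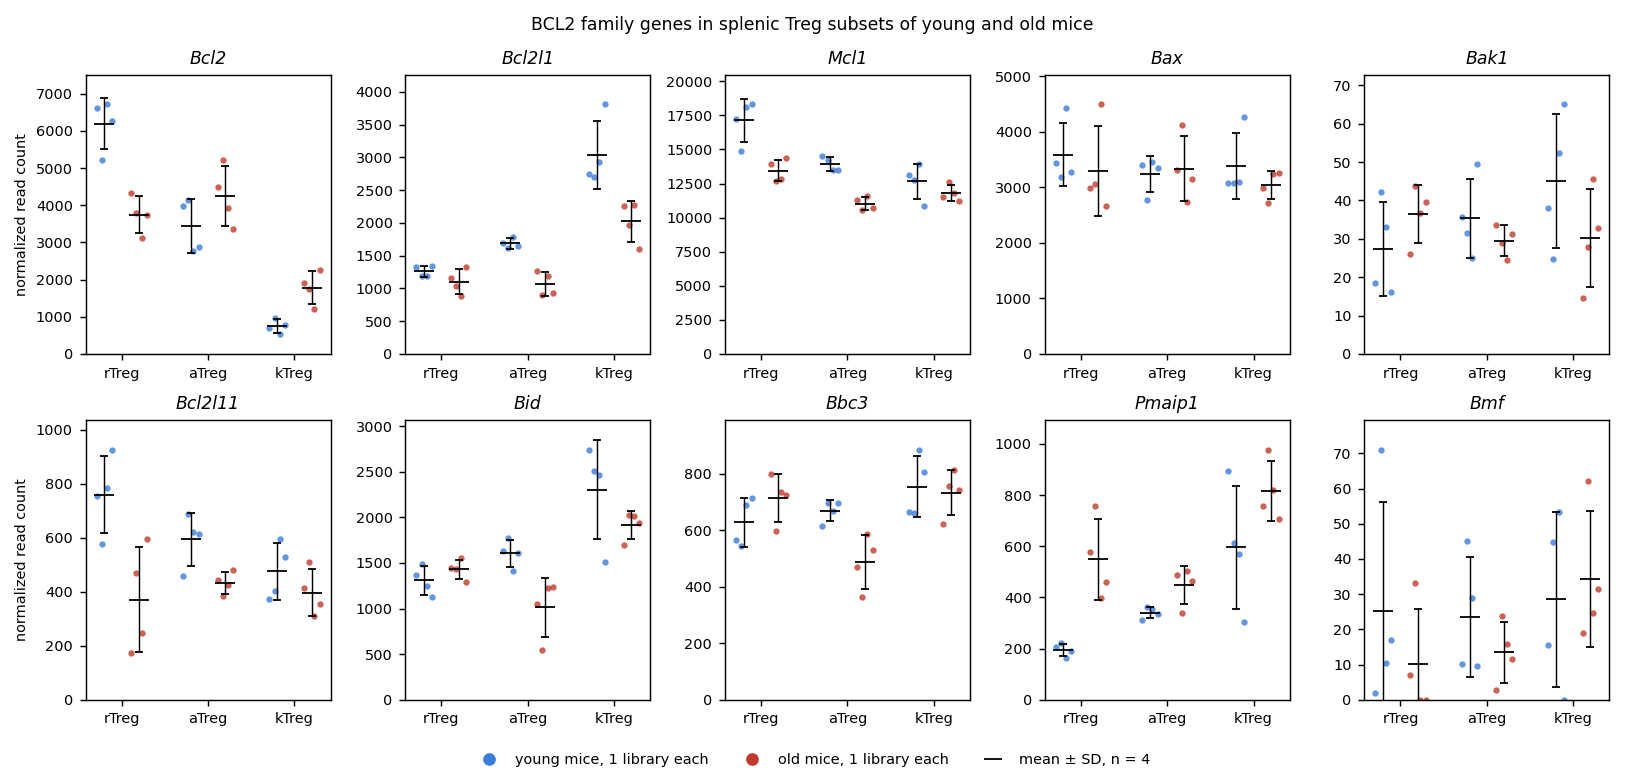
Normalized read count (linear axes from 0) of each of the 10 genes in rTreg, aTreg and kTreg libraries of young and old mice. Points are libraries, and black marks are the mean ± SD of 4. *Bcl2* lay lowest in kTreg cells, at 545 to 978 in young and 1202 to 2268 in old mice, and *Bcl2l1* lay highest there, at 2696 to 3809 in young and 1606 to 2268 in old mice. Whiskers that would pass below 0 for *Bmf* end at the axis.

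Among the anti-apoptotic genes, *Bcl2* (ENSMUSG00000057329) showed the widest range as a fold between its lowest and highest library. Its values in young mice 1 to 4 were 6614, 5206, 6710 and 6262 in rTreg cells, 3977, 4148, 2757 and 2889 in aTreg cells and 690, 978, 545 and 786 in kTreg cells. In old mice 1 to 4 they were 4328, 3797, 3108 and 3743 in rTreg cells, 4480, 5224, 3918 and 3358 in aTreg cells and 1919, 1742, 1202 and 2268 in kTreg cells. Every kTreg library lay below every aTreg and rTreg library, at both ages. By group mean the order from high to low was young rTreg (6198 ± 689), old aTreg (4245 ± 798), old rTreg (3744 ± 499), young aTreg (3443 ± 721), old kTreg (1783 ± 445) and young kTreg (750 ± 182) (mean ± SD, n = 4). The ranges of neighbours overlapped from young rTreg down to young aTreg, while those of young aTreg and old kTreg, and of old kTreg and young kTreg, did not. The overlap of young rTreg and old aTreg rests on young rTreg 2 (5206) and old aTreg 2 (5224), both named above as standing apart. The log2 fold change of kTreg against aTreg cells was −1.74 ± 0.14 (SE), a 3.33-fold lower level (limma, adjusted p = 7.48e-08), in the same direction in 8 of 8 mice. Against rTreg cells it was −2.08 ± 0.14, a 4.24-fold lower level (adjusted p = 7.97e-10, limma), again in 8 of 8 mice.

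*Bcl2l1* (ENSMUSG00000007659) ran the other way. Its values in young mice 1 to 4 were 1329, 1191, 1183 and 1343 in rTreg cells, 1692, 1618, 1792 and 1644 in aTreg cells and 2741, 2696, 2926 and 3809 in kTreg cells. In old mice 1 to 4 they were 1163, 1045, 890 and 1327 in rTreg cells, 1263, 904, 1191 and 928 in aTreg cells and 2263, 1976, 2268 and 1606 in kTreg cells. Within each age no kTreg library overlapped with the other subsets, but the lowest old kTreg library lay below all 4 young aTreg libraries. The level was 1.84-fold higher in kTreg than in aTreg cells (log2 fold change 0.88 ± 0.10, limma, adjusted p = 8.61e-06) and 2.09-fold higher than in rTreg cells (1.07 ± 0.10, adjusted p = 1.11e-07), in 8 of 8 mice in both comparisons. *Bcl2* and *Bcl2l1* kept their calls in both comparisons under each of the 38 alternatives.

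*Mcl1* (ENSMUSG00000038612) was the most abundant of the 10 genes per kilobase of exon, at group means of 3158 to 4909 per kb, and moved little. Its values in young mice 1 to 4 were 17236, 14898, 18116 and 18296 in rTreg cells, 14499, 14253, 13507 and 13514 in aTreg cells and 13103, 12737, 13925 and 10827 in kTreg cells. In old mice they were 13910, 12716, 12839 and 14338, then 11285, 10553, 11572 and 10695, then 11519, 12638, 11836 and 11227, in the same order of subsets. rTreg cells held more *Mcl1* than aTreg cells in 8 of 8 mice and more than kTreg cells in 8 of 8 mice, with log2 fold changes of −0.29 ± 0.06 for aTreg against rTreg cells (adjusted p = 0.00175, limma) and −0.31 ± 0.06 for kTreg against rTreg cells (adjusted p = 0.000355). Both differences were under the 1.5-fold threshold. Between kTreg and aTreg cells the log2 fold change was −0.02 ± 0.06 (adjusted p = 0.84).

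The effectors differed widely in level. *Bax* (ENSMUSG00000003873) had a group mean of 1641 to 1930 per kb of exon, second to *Mcl1*, and *Bak1* (ENSMUSG00000057789) one of 11.4 to 18.7. The normalized values of *Bax* lay between 2668 and 4488 in all 24 libraries, with no order by subset. Its log2 fold change was −0.03 ± 0.11 for kTreg against aTreg cells (adjusted p = 0.891, limma) and −0.09 ± 0.11 for kTreg against rTreg cells (adjusted p = 0.612). *Bak1* rested on 14 to 71 reads per library, with values of 14.7 to 65.0, and its log2 fold change for kTreg against aTreg cells was 0.12 ± 0.30 (adjusted p = 0.851), an error too wide to show a moderate difference. Whether its few reads or the spread between mice set that error was not tested. Of the exon bases of *Bak1*, 18.2% also lie in exons of *Ggnbp1* on the other strand, and the strand setting of the counting was not given.

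Of the BH3-only genes, *Bid* (ENSMUSG00000004446), which encodes a protein that caspase-8 cleaves to link death receptors to mitochondria, was higher in kTreg cells. Its values in young mice 1 to 4 were 1372, 1490, 1247 and 1125 in rTreg cells, 1636, 1774, 1410 and 1604 in aTreg cells and 2736, 2511, 2462 and 1510 in kTreg cells. In old mice they were 1444, 1433, 1552 and 1289 in rTreg cells, 1052, 543, 1223 and 1232 in aTreg cells and 1695, 2026, 2010 and 1936 in kTreg cells. All kTreg libraries but young kTreg 4 lay above every rTreg library, and the low old aTreg value is that of old aTreg 2. The level was 1.67-fold higher in kTreg than in aTreg cells (log2 fold change 0.74 ± 0.14, limma, adjusted p = 0.00164, 7 of 8 mice) and 1.52-fold higher than in rTreg cells (0.61 ± 0.14, adjusted p = 0.00384, 8 of 8 mice). The second of these lies close to the fold threshold, and 33 of 38 alternatives kept it. Of the exon bases of *Bid*, 31.2% also lie in exons of *Bcl2l13* on the other strand.

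*Pmaip1* (ENSMUSG00000024521) encodes NOXA, which binds MCL1 and is a target of p53. Its values in young mice 1 to 4 were 204, 220, 163 and 189 in rTreg cells, 312, 361, 354 and 334 in aTreg cells and 894, 612, 571 and 303 in kTreg cells. In old mice they were 579, 758, 398 and 460 in rTreg cells, 489, 340, 503 and 465 in aTreg cells and 759, 975, 822 and 705 in kTreg cells. The 3 young subsets were ordered rTreg, aTreg, kTreg except for young kTreg 4, and in old mice kTreg cells lay above aTreg cells in each mouse. The level was 1.72-fold higher in kTreg than in aTreg cells (0.78 ± 0.18, limma, adjusted p = 0.00474, 7 of 8 mice) and 2.09-fold higher than in rTreg cells (1.06 ± 0.18, adjusted p = 0.000111, 8 of 8 mice).

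*Bbc3* (ENSMUSG00000002083), another p53 target, lay between 364 and 883 in all libraries. Its log2 fold change for kTreg against aTreg cells was 0.38 ± 0.11, with an adjusted p of 0.0256 (limma) and a fold of 1.3 that was under the threshold. *Bcl2l11* (ENSMUSG00000027381) had group means of 371 to 760 and showed no difference past the thresholds for kTreg against aTreg cells (−0.24 ± 0.20, adjusted p = 0.499) or against rTreg cells (−0.22 ± 0.20, adjusted p = 0.468). *Bmf* (ENSMUSG00000040093) was near the floor of detection, with values of 0 to 70.9, at least 10 in 17 libraries and 0 in 3. Its fitted fold changes depend on the pseudocount and are not read here.

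Taken by age, the subset differences were as follows. In young mice 1 gene was called higher (*Bcl2l1*, 0.84 ± 0.15) and 1 lower (*Bcl2*, −2.21 ± 0.20) in kTreg than in aTreg cells, where 6.95% of all genes were called. Without young kTreg 4, 4 genes were called, since *Bid* (0.68, adjusted p = 0.0294) and *Pmaip1* (1.00, adjusted p = 0.00355, limma) then passed. Against young rTreg cells *Bcl2l1* (1.26 ± 0.15), *Bid* (0.79 ± 0.21) and *Pmaip1* (1.52 ± 0.25) were higher and *Bcl2* lower by 8.4-fold (−3.07 ± 0.20, adjusted p = 9.4e-10), where 15.8% of all genes were called. Between young aTreg and young rTreg cells 1 gene was called, *Bcl2*, which was 1.82-fold lower in aTreg cells (−0.87 ± 0.20, adjusted p = 0.0123, 4 of 4 mice), beside 3.35% of all genes. That call was lost without young aTreg 3 (adjusted p = 0.0598).

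In old mice *Bcl2* was 2.41-fold lower in kTreg than in aTreg cells (−1.27 ± 0.20, limma, adjusted p = 0.0012), and *Bcl2l1* (0.92 ± 0.15), *Bid* (0.99 ± 0.20) and *Bbc3* (0.60 ± 0.16, adjusted p = 0.0425) were higher, so that 4 of the 10 genes were called where 2.2% of all genes were. The *Bbc3* call held in 25 of 38 alternatives, and its adjusted p was 0.22 without old aTreg 2. That of *Bid* was 0.0506 without old kTreg 3, where 2 genes were called. *Pmaip1* was not called by limma (0.86, adjusted p = 0.0688), whereas DESeq2 called it (adjusted p = 0.0142). For old kTreg against old aTreg cells DESeq2 called 5 of the 10 genes and edgeR 3. Macrophage and monocyte markers summed to 1954 to 2883 in old kTreg and 229 to 326 in old aTreg libraries. Their part in the differences between these subsets was not tested. Between old kTreg and old rTreg cells *Bcl2l1* was higher (0.88 ± 0.15) and *Bcl2* lower (−1.10 ± 0.20), beside 8.86% of all genes called. Without young kTreg 4, whose spread enters the pooled error, 4 genes were called there, *Pmaip1* (0.60, adjusted p = 0.0357) and *Bmf* among them. Between old aTreg and old rTreg cells 0 of the 10 were called by limma, edgeR or DESeq2, beside 8.6% of all genes by limma, with 3 at an unadjusted p below 0.05. *Bbc3* had the smallest p among the BH3-only genes there (−0.57 ± 0.16, adjusted p = 0.0242, a fold of 1.48), and it passed the fold threshold without old rTreg 2, old aTreg 3 or old aTreg 4.

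**Figure D2:**
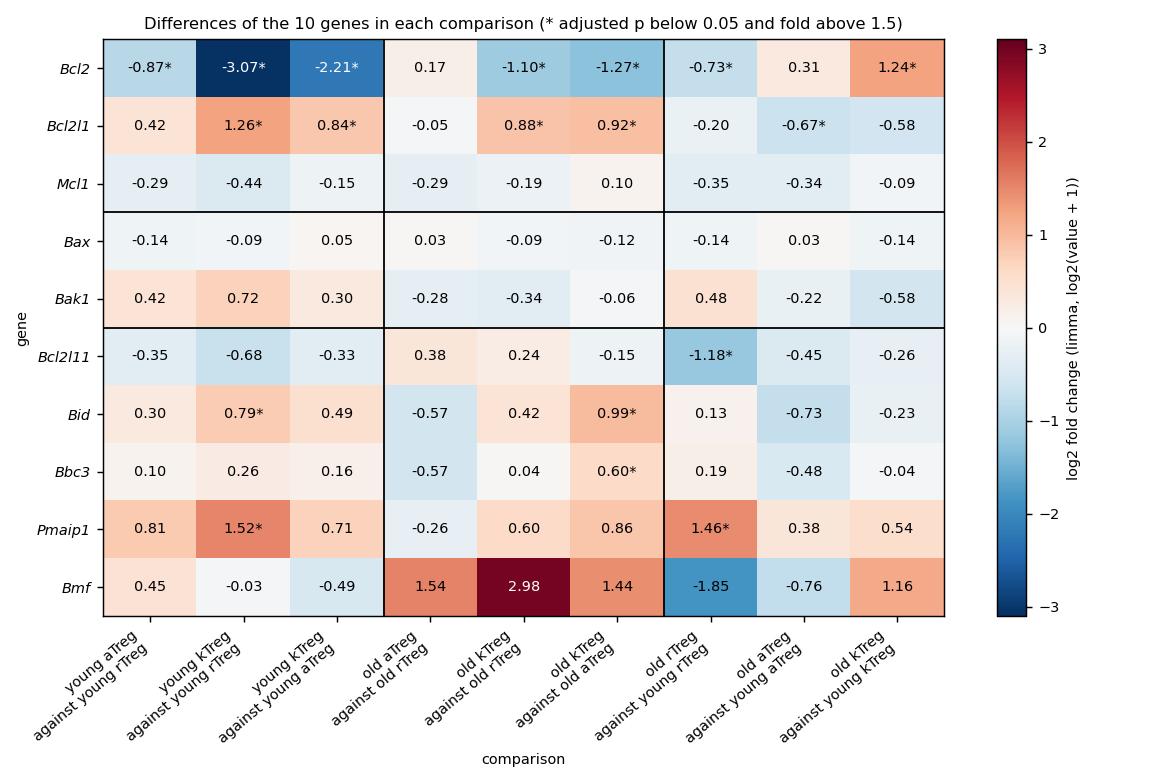
Log2 fold change (limma, on log2(value + 1)) of the 10 genes, in rows ordered as anti-apoptotic, effector and BH3-only genes, in 9 comparisons, in columns. Red is higher and blue lower in the group named first, and an asterisk marks an adjusted p below 0.05 with a fold above 1.5. The row of *Bcl2* holds a call in 7 of the 9 comparisons, and the row of *Bax* none, with values between −0.14 and 0.05.

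The second question was which of these genes differ between old and young mice within a subset. No gene was called in the same direction in more than 1 subset. In rTreg cells of old mice *Bcl2* and *Bcl2l11* were lower and *Pmaip1* was higher, in aTreg cells *Bcl2l1* was lower, and in kTreg cells *Bcl2* was higher. The counts were 1 higher and 2 lower in rTreg cells (all genes, 4.12% higher and 1.71% lower), 0 higher and 1 lower in aTreg cells (1.85% and 0.86%), and 1 higher and 0 lower in kTreg cells (1.02% and 0.235%). The median log2 fold change of the 10 genes was −0.17, −0.39 and −0.12 in rTreg, aTreg and kTreg cells, beside −0.08, 0.01 and 0.12 over all genes tested. Young rTreg and old rTreg libraries also enter the subset comparisons above, as do those of the other subsets, so these comparisons share libraries.

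In rTreg cells *Bcl2* was 1.66-fold lower in old than in young mice (−0.73 ± 0.20, limma, adjusted p = 0.0267), and the highest old library, at 4328, lay below the lowest young one, at 5206. The call was lost in 4 of 37 alternatives, those without young rTreg 1, young rTreg 3, young rTreg 4 or old rTreg 3 (adjusted p = 0.0744, 0.0906, 0.0613 and 0.062). *Bcl2l11* was 754, 577, 786 and 924 in young mice 1 to 4 and 172, 471, 246 and 594 in old mice, a range that reached into the young one. It was 2.27-fold lower by the fit (−1.18 ± 0.29, adjusted p = 0.0142), and the call was lost when only these 2 groups entered the model (adjusted p = 0.115) and without young rTreg 4 (adjusted p = 0.0518). *Pmaip1* lay at 163 to 220 in young and 398 to 758 in old rTreg cells, a 2.75-fold higher level (1.46 ± 0.25, adjusted p = 0.000753) that passed in all 37 alternatives. *Mcl1* was lower too, with no overlap between the groups, by −0.35 ± 0.08 (adjusted p = 0.0119), under the fold threshold.

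These rTreg differences go along with the markers of macrophages and monocytes and with those of plasma cells (3 of 4 genes listed), which summed to 3168 to 9508 in old and 115 to 1158 in young rTreg libraries. In old rTreg libraries these sums rested mostly on *Lyz2* (9381 to 25153) and *Jchain* (2941 to 9158). Young rTreg libraries held 515 to 6548 of *Lyz2* and 50.3 to 1025 of *Jchain*. The defining macrophage gene *Csf1r* lay at 143 to 747 in old and 9.25 to 940 in young rTreg libraries. *Csf1r*, *Cd68*, *Adgre1*, *Cd14* and *Derl3* overlapped between the ages, while *Lyz2*, *Itgam*, *Jchain* and *Sdc1* were higher in every old library. Neutrophil markers (5 of 5 listed) summed to 10507 and 15070 in old rTreg 2 and 3 and to at most 23.6 in old rTreg 1 and 4. All 4 old libraries held more *Lyz2* and *Jchain* than every young one. RNA from macrophages and plasma cells thus cannot be told apart from age in this subset. Markers of NK cells (4 genes, all listed) summed to 1366 to 2243 in old and 747 to 884 in young rTreg libraries, without overlap. Those of erythroid cells (3 of 4 genes listed) summed to 701 to 2116 in old rTreg libraries, to 64.2 to 89.6 in 3 young ones and to 6216 in young rTreg 2. Old rTreg libraries also listed more genes at 0, 1215 to 2756 against 554 to 1146 in young ones, and the part of these measures in the differences was not tested. In young rTreg 2, where the macrophage markers summed to 8152, *Pmaip1* was 220, the highest of the young rTreg libraries. *Bcl2* (5206), *Bcl2l11* (577) and *Mcl1* (14898) were each the lowest of that group there. Each of these values lay on the side of the old libraries. Young rTreg 2 also held the highest sums of B cell (16030) and erythroid (6216) markers of its group. In young kTreg 2, where the macrophage markers summed to 19824, *Bcl2* (978) was the highest of its group. *Pmaip1* (612), *Bcl2l11* (404) and *Mcl1* (12737) lay between the others there. Whether RNA of other cells set any of these values was not tested. Without young mouse 2 the log2 fold changes were −0.81 for *Bcl2*, −1.31 for *Bcl2l11* and 1.52 for *Pmaip1*, with adjusted p of 0.0153, 0.0153 and 0.00209 (limma).

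In aTreg cells *Bcl2l1* lay at 1618 to 1792 in young and 904 to 1263 in old mice, without overlap, a 1.59-fold lower level in old mice (−0.67 ± 0.15, limma, adjusted p = 0.0116). Its adjusted p was 0.0576 without old aTreg 2, and the call held in the other 36 alternatives. *Bid* lay at 1410 to 1774 in young and 543 to 1232 in old aTreg cells (−0.73 ± 0.21, adjusted p = 0.055), and passed in 7 of 37 alternatives. *Mcl1* lay at 13507 to 14499 in young and 10553 to 11572 in old aTreg cells, a difference of −0.34 ± 0.08 (adjusted p = 0.0223) under the fold threshold. *Bcl2* overlapped between the ages (0.31 ± 0.20, adjusted p = 0.615). Treg markers were lower too, with 2 of the 5 called and sums of 24240 to 54967 in old against 63489 to 65345 in young aTreg libraries, and their part in these differences was not tested.

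In kTreg cells *Bcl2* was 2.37-fold higher in old than in young mice (1.24 ± 0.20, limma, adjusted p = 0.0015), and every old library, from 1202 to 2268, lay above every young one, from 545 to 978. The call held in 36 of 37 alternatives and was lost when only the 2 groups entered the model (adjusted p = 0.0833). Without young kTreg 4 and old aTreg 2 it was 1.28 (adjusted p = 0.00194), and without young mouse 2 it was 1.38 (adjusted p = 0.000762). *Bcl2l1* lay at 1606 to 2268 in old and 2696 to 3809 in young kTreg cells, also without overlap, with a log2 fold change of −0.58 ± 0.15 (adjusted p = 0.0497) at a fold just under the threshold. Without young kTreg 4 and old aTreg 2 it was −0.47 (adjusted p = 0.103). *Pmaip1* (0.54 ± 0.25, adjusted p = 0.301), *Bid* (−0.23 ± 0.21, adjusted p = 0.57) and *Mcl1* (−0.09 ± 0.08, adjusted p = 0.565) did not pass. Macrophage and monocyte markers summed to 1954 to 2883 in old kTreg libraries. In young kTreg 1, 3 and 4 they summed to 0 to 943, and in young kTreg 2 to 19824. Plasma cell markers summed to 257 to 2027 in old and 81.7 to 688 in young kTreg libraries. The part of these markers in the age differences was not tested.

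The third question was whether the subset differences themselves changed with age, as an interaction of age with subset. For kTreg against rTreg cells 1 of the 10 genes passed, beside 3.02% of all genes: the log2 difference of *Bcl2* was −3.07 in young and −1.10 in old mice, an interaction of 1.97 ± 0.28 (limma, adjusted p = 0.000596). It passed in all 38 alternatives, with adjusted p no higher than 0.00403. Interactions against rTreg cells include the age difference of that subset, in which RNA from macrophages and plasma cells cannot be told apart from age. *Pmaip1* had an interaction of −0.91 ± 0.35 (adjusted p = 0.172), and it passed without young kTreg 4 (−1.20, adjusted p = 0.0158), where 2 genes were called.

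For kTreg against aTreg cells 0 of the 10 were called by limma, edgeR or DESeq2, beside 0.156% of all genes by limma, and 2 had an unadjusted p below 0.05. The interaction of *Bcl2* there was 0.94 ± 0.28 (adjusted p = 0.277). For aTreg against rTreg cells limma and edgeR called 0 and DESeq2 2 of the 10, beside 1.56% of all genes by limma, with 5 at an unadjusted p below 0.05. *Bcl2* had an interaction of 1.04 ± 0.28 with an adjusted p of 0.0622, which became 0.0456 with the mouse as a replicate block fitted as a random term and 0.0484 as a fixed term, since libraries of a mouse are paired. For this interaction the count of calls was thus 0 without and 1 with the block.

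**Figure D3:**
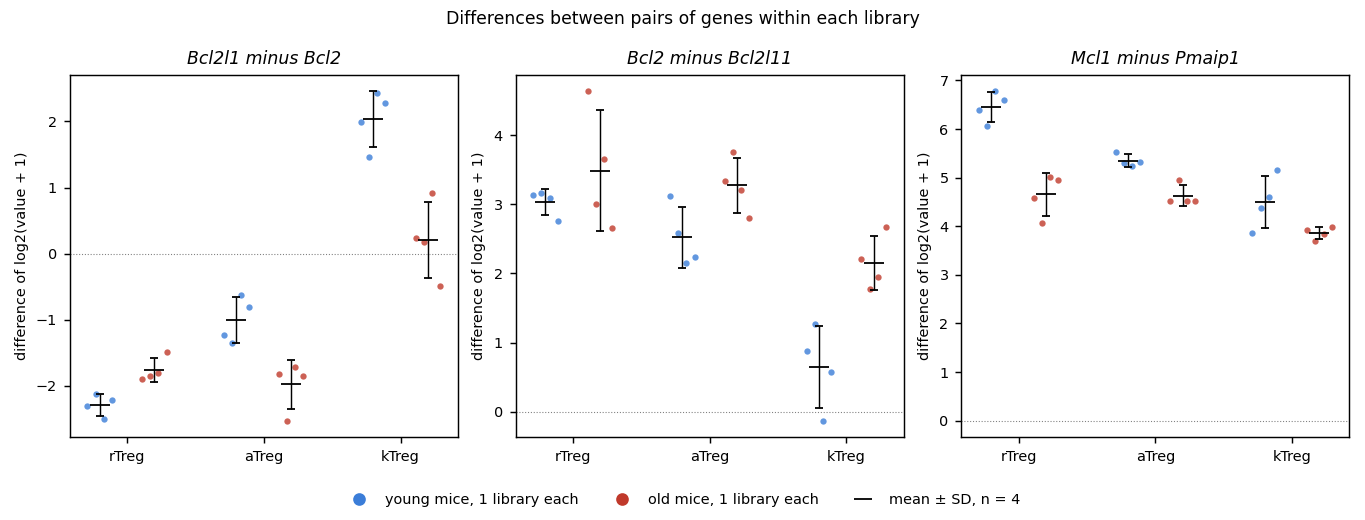
Difference of log2(value + 1) between 2 genes of the same library, for *Bcl2l1* minus *Bcl2*, *Bcl2* minus *Bcl2l11* and *Mcl1* minus *Pmaip1*. Points are libraries of young and old mice, black marks the mean ± SD of 4, and the dotted line is equal normalized counts. *Bcl2l1* minus *Bcl2* is below 0 in all rTreg and aTreg libraries and between 1.46 and 2.42 in young kTreg cells.

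Differences between 2 genes within a library hardly depend on its size factor, and they are given as descriptions. They are not corrected for length, so they are read between groups and not as an order of 2 genes. *Bcl2l1* minus *Bcl2* was −2.29 ± 0.16 in young rTreg, −1.01 ± 0.35 in young aTreg and 2.04 ± 0.42 in young kTreg cells (log2, mean ± SD, n = 4). In old mice it was −1.76 ± 0.18, −1.98 ± 0.37 and 0.21 ± 0.58 in the same order. Young kTreg cells stood farthest from the other groups, and old kTreg cells lay between them and the rest.

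The difference of *Bcl2* and *Bcl2l11*, a survival gene and the gene of its antagonist BIM, was 3.04 ± 0.19 in young rTreg, 2.52 ± 0.44 in young aTreg and 0.65 ± 0.59 in young kTreg cells. In old mice it was 3.49 ± 0.87, 3.28 ± 0.40 and 2.15 ± 0.39. Young kTreg libraries, from −0.13 to 1.27, lay below all others, the next lowest of which was an old kTreg library at 1.77. With *Bcl2l1* in place of *Bcl2*, the mean difference was highest in kTreg cells at both ages. It was 0.75, 1.52 and 2.69 in young and 1.73, 1.29 and 2.36 in old rTreg, aTreg and kTreg cells. *Mcl1* minus *Bcl2l11* was 4.51, 4.56 and 4.75 in young and 5.34, 4.67 and 4.92 in old mice, in that order. The difference of *Mcl1* and *Pmaip1*, whose protein binds MCL1, was 6.46 ± 0.30, 5.35 ± 0.13 and 4.5 ± 0.53 in young and 4.65 ± 0.44, 4.63 ± 0.21 and 3.86 ± 0.13 in old rTreg, aTreg and kTreg cells. Young rTreg libraries lay highest, at 6.07 to 6.78, with no other library above 5.53.

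**Figure D4:**
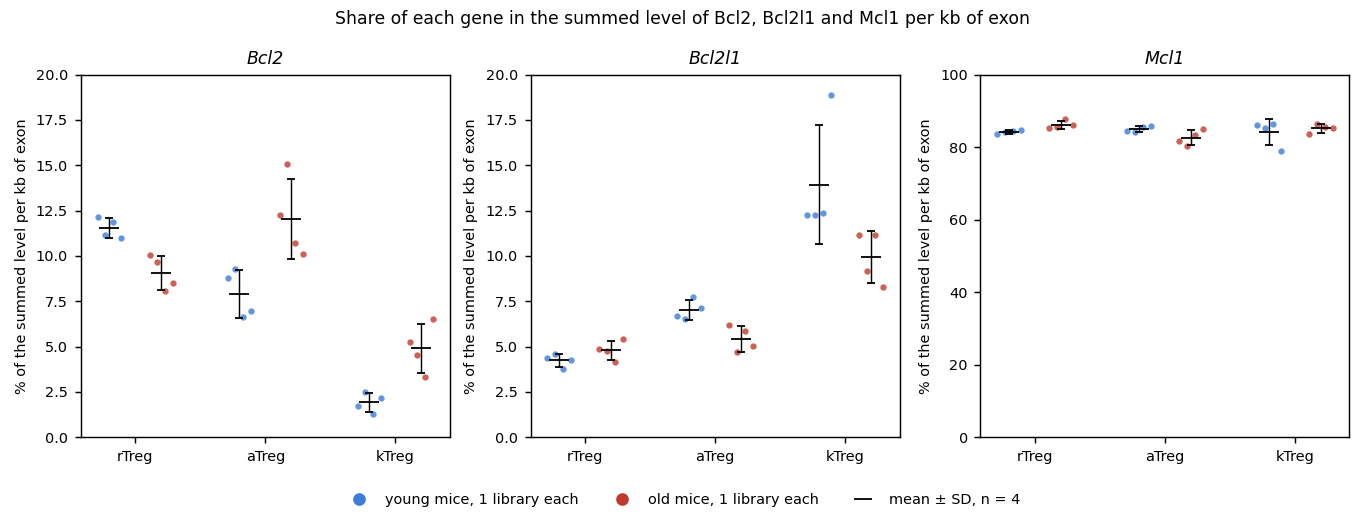
Share (%) of *Bcl2*, *Bcl2l1* and *Mcl1* in their summed level per kb of exon, by library. Points are libraries of young and old mice, and black marks the mean ± SD of 4. The axes start at 0 and reach 20% for the first 2 genes and 100% for *Mcl1*, which lies between 78.95% and 87.8% in all libraries.

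Per kb of exon, *Mcl1* made up most of the summed level of the 3 anti-apoptotic genes in every group, with group means of 82.5% to 86.1%. The remainder was divided differently. *Bcl2* made up 11.5% ± 0.5 in young rTreg, 7.9% ± 1.3 in young aTreg and 1.9% ± 0.5 in young kTreg cells, and *Bcl2l1* 4.2% ± 0.4, 7.0% ± 0.5 and 13.9% ± 3.3. The share of *Bcl2l1* was 18.9% in young kTreg 4 and from 12.2% to 12.3% in the other 3 young kTreg libraries. In old mice *Bcl2* made up 9.1% ± 0.9, 12% ± 2.2 and 4.9% ± 1.4, and *Bcl2l1* 4.8% ± 0.5, 5.4% ± 0.7 and 9.9% ± 1.4, in the same order. The summed level itself was highest in young rTreg cells (5827 ± 522 per kb) and lowest in old aTreg cells (3828 ± 175 per kb). Exon lengths are the union of GENCODE M39 exons, which can be longer than the transcripts present.

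Of the pathway around these 10 genes, 54 others were listed, in 6 lists. Apoptosome and caspase genes (11 tested) had 2 higher and 0 lower in kTreg than in aTreg cells, where 4.13% of all genes were called higher and 3.26% lower, with a median log2 fold change of 0.03 beside −0.08 over all genes. Among them was *Apaf1*, the scaffold that cytochrome c assembles into the apoptosome (0.83 ± 0.15, limma, adjusted p = 0.000858). In old rTreg cells 2 of the 11 were higher than in young ones, beside 4.12% of all genes, *Apaf1* among them (0.71 ± 0.21, adjusted p = 0.0495). In old kTreg cells 1 was higher, beside 1.02% of all genes, and it was *Htra2*, a mitochondrial protease that counters inhibitors of apoptosis (0.69 ± 0.17, adjusted p = 0.0455). Between aTreg and rTreg cells, and between old and young aTreg cells, 0 of the 11 were called by limma, edgeR or DESeq2, with 1 at an unadjusted p below 0.05 in each.

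Inhibitors of apoptosis (5 tested) had 1 gene called higher in kTreg than in aTreg cells, 1 lower in aTreg than in rTreg cells and 1 higher in old than in young rTreg cells, where 4.13%, 2.78% and 4.12% of all genes were called in those directions. In each case the gene was *Birc5*. It encodes survivin, a protein that is also needed for chromosome segregation in dividing cells. Its log2 fold changes were 1.45 ± 0.28 (limma, adjusted p = 0.00122), −1.73 ± 0.28 (adjusted p = 0.000212) and 1.40 ± 0.39 (adjusted p = 0.0339). By group mean *Birc5* was 1834 in kTreg and 363 in aTreg cells of young mice, but 705 and 490 in old mice. Between old kTreg and old aTreg cells 0 of the 5 were called by limma, edgeR or DESeq2, with 2 at an unadjusted p below 0.05. Limma called 1 of the 5 lower in old kTreg than in old rTreg cells, beside 8.86% of all genes called. Among death receptor pathway genes (9 tested), limma called *Tnfrsf10b*, a TRAIL receptor, which was higher in kTreg than in aTreg cells (0.85 ± 0.20, adjusted p = 0.00781), beside 4.13% of all genes. It called 0 of the 9 between aTreg and rTreg cells, where DESeq2 called 1, edgeR 0, and 4 had an unadjusted p below 0.05.

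Upstream regulators (17 tested) had 0 higher and 2 lower in kTreg than in aTreg cells, where 4.13% of all genes were called higher and 3.26% lower, with a median log2 fold change of 0.07 beside −0.08. The 2 were *Myc*, a driver of growth and division (−0.95 ± 0.15, limma, adjusted p = 0.000273), and *Pim2*, a survival kinase (−1.10 ± 0.23, adjusted p = 0.00239). *Il7r*, the IL-7 receptor alpha chain, was higher in aTreg than in rTreg cells (1.41 ± 0.20, adjusted p = 7.59e-05) and higher in old than in young aTreg cells (1.85 ± 0.29, adjusted p = 0.000766). *Il2ra*, which encodes CD25 and feeds the IL-2 signal, was lower in old than in young aTreg cells (−1.18 ± 0.19, adjusted p = 0.000851) and rTreg cells (−0.93 ± 0.19, adjusted p = 0.00375). *E2f1*, a regulator of entry into S phase, was higher in old rTreg cells (1.23 ± 0.35, adjusted p = 0.0382).

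Further typical family genes (9 in the list, 6 listed and tested) had 3 higher and 0 lower in aTreg than in rTreg cells, where 5.23% of all genes were called higher and 2.78% lower, with a median log2 fold change of 1.23 beside 0.06 over all genes. In old aTreg cells 3 were higher than in young ones, beside 1.85% of all genes, with a median of 1.05 beside 0.01. *Bik*, a BH3-only gene, was higher in both (2.47 ± 0.35, limma, adjusted p = 6.62e-05, and 2.63 ± 0.50, adjusted p = 0.00344). *Bcl2a1b*, an anti-apoptotic gene, was higher in aTreg than in rTreg cells (1.03 ± 0.14, adjusted p = 3.18e-05), and *Bcl2a1a* in old aTreg cells (4.53 ± 0.92, adjusted p = 0.00619), from values of 2.4 to 14.5 in young to 174 to 216 in old mice. *Bcl2a1a*, *Bcl2a1b* and *Bcl2a1d* are near-identical copies between which reads may be split, so their separate values are uncertain. Of the less typical family genes (6 tested), limma and edgeR called 0 for kTreg against aTreg cells, for aTreg against rTreg cells and with age in each subset. DESeq2 called 1 with age in rTreg cells, and 1 gene there and 2 with age in kTreg cells had an unadjusted p below 0.05.

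The genes most like *Bcl2* over the 24 libraries, by Pearson r of log2(value + 1), were *Ms4a4c* (r = 0.93), *Gm2682* (r = 0.93) and *Evl* (r = 0.93). Those most like *Mcl1* were *Ecm1* (r = 0.94), *Lef1* (r = 0.94) and *Smc6* (r = 0.93). Those most like *Bcl2l11* were *Ly6m* (r = 0.77), *Cep350* (r = 0.76) and *Chd6* (r = 0.73), less close than for the other two. The 24 points fall into 6 groups and share mice, so these values describe likeness only.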

How the data were processed

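RNA of FACS-sorted rTreg, aTreg and kTreg cells (RNeasy Micro) was converted to cDNA with SMART-Seq v4, which marks neither strand nor molecule. Per the labels, the authors used HISAT2 2.2.1 on GRCm39, SAMtools 1.13, HTSeq 1.99.2 and DESeq2 1.44.0. The annotation release, strand setting and treatment of multiply mapped reads were not given in the sources used here. The authors deposited a normalized signal, reads divided by 1 size factor per library, for 17464 identifiers with at least 100 reads in sum. From its steps, 100% of values were whole reads within 0.01 reads. PCR reads are not independent molecules, so the spread between mice is the error used. All columns were mapped to a sample (0 left over).

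GENCODE M39 on GRCm39 named 17353 identifiers. limma 3.58.1 (R 4.3.3), with a trend, was fitted to log2(value + 1) with a mean for each of 6 groups, over the 16630 genes that reached 10 in 4 or more libraries. p-values were adjusted over all of these by the Benjamini-Hochberg method. Genes were called at an adjusted p below 0.05 and a fold above 1.5. The fit was tested on simulated data. edgeR 4.0.16 and DESeq2 1.42.0 on recovered reads were alternatives. So were other pseudocounts, filters, call rules and TMM scaling, the replicate block, a model of only the groups compared, and fits without each library. The choice of libraries left out together (young kTreg 4 with old aTreg 2, and young mouse 2) was made after seeing the data.

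The design text states that the 3 subsets came from the same mice, so replicate numbers pair libraries. Deviations from group means correlated with a median of 0.115 (kTreg and aTreg), 0.0911 (kTreg and rTreg) and 0.153 (aTreg and rTreg) within mice. The 10 genes and all lists were chosen with earlier results of these data known. Named genes are the 10, from each other list at most the 2 called genes with the smallest p per direction in 5 comparisons, and the 3 genes most correlated with *Bcl2*, *Mcl1* and *Bcl2l11*. Not every gene the rule selects is reported. Python 3.11.15, numpy, pandas and matplotlib were used for tables and plots.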

Additional observations from a re-analysis of the deposited data

Results flagged for a closer look

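*Bax* stood apart in 2 of the 60 groups of 4 libraries examined (10 genes in 6 groups), by the gap of 1 library to its nearest neighbour relative to the range of its group, a criterion that chance meets in about 1 in 20 groups. *Bax* was 4267 in young kTreg 4, the highest of its group, beside 3073 to 3097 in the other 3, and that library also held the lowest *Bid* and *Pmaip1* and the highest *Bcl2l1* of its group. *Bax* was 2762 in young aTreg 2, the lowest of its group.

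*Bcl2* differed in its age effect between subsets. The interaction of age with kTreg against rTreg cells was 1.97 on the log2 scale (limma, adjusted p = 0.000596). *Bcl2* was lower in old than in young rTreg cells and higher in old than in young kTreg cells. The ages did not overlap in either subset. In rTreg cells age cannot be told apart from RNA of macrophages and plasma cells. The part of such RNA in the age difference of kTreg cells was not tested.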

How the results depend on the processing

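The 10 genes in 15 comparisons gave 5640 log2 fold changes under the alternatives, of which 5460 kept sign and call, 69 gained and 28 lost a call and 83 uncalled ones changed sign. No called value changed sign. The counts of genes called for kTreg against aTreg cells (4), kTreg against rTreg cells (4) and young kTreg against young rTreg cells (4) stayed within 1.5 times under every alternative.

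Without the fold threshold the count was 1 for aTreg against rTreg cells (not 0), 2 for young aTreg against young rTreg cells (not 1), 2 for old aTreg against old rTreg cells (not 0) and 2 for age in aTreg and in kTreg cells (not 1). With unadjusted p and the fold threshold it was 2 for young aTreg against young rTreg cells, 4 for old kTreg against old rTreg cells (not 2), 2 for age in aTreg cells, and 1, 3 and 4 for the interactions of kTreg against aTreg (not 0), kTreg against rTreg (not 1) and aTreg against rTreg cells (not 0). With only the groups compared it was 2 for young aTreg against young rTreg cells, 0 for age in kTreg cells and 1 for the interaction of aTreg against rTreg cells. DESeq2 gave 2 for each of young aTreg against young rTreg cells, age in aTreg cells, age in kTreg cells and the interaction of aTreg against rTreg cells. A pseudocount of 5 and a filter at 50 each gave 2 for age in aTreg cells, and TMM scaling gave 2 for age in kTreg cells. With the replicate block the interaction of aTreg against rTreg cells had 1 gene called, as a random or a fixed mouse term, and the paired fits changed no other call.

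Without young kTreg 4 and old aTreg 2 the count was 4 for young kTreg against young aTreg cells (not 2), 2 for young aTreg against young rTreg cells, 4 for old kTreg against old rTreg cells and 2 for the interaction of kTreg against rTreg cells. Without young mouse 2 it was 1 for the interaction of aTreg against rTreg cells.

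With 1 library left out at a time, the count ranged from 2 to 4 for young kTreg against young aTreg cells, 0 to 2 for young aTreg against young rTreg cells, 2 to 5 for old kTreg against old aTreg cells, 2 to 4 for old kTreg against old rTreg cells and 0 to 1 for old aTreg against old rTreg cells. It ranged from 1 to 3 for age in rTreg cells, 0 to 2 in aTreg cells and 1 to 2 in kTreg cells, and from 1 to 2 and 0 to 2 for the interactions of kTreg and of aTreg against rTreg cells. The 4 for young kTreg against young aTreg cells and the 4 for old kTreg against old rTreg cells came without young kTreg 4, as did the 2 for both interactions. The 4 for old kTreg against old rTreg cells also rests on *Bmf*. The lowest counts came without young aTreg 3 (young aTreg against young rTreg cells), old kTreg 3 (old kTreg against old aTreg cells), young rTreg 4 (age in rTreg cells) and old aTreg 2 (age in aTreg cells). The causes of these shifts were not tested. With 4 mice a group changes can have been missed, large ones included, and *Bmf* and *Bak1* rest on few reads (0 to 69 and 14 to 71 per library).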
